A study of Drosophila melanogaster with 2 samples.

Results

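Peaks from chromatin immunoprecipitation with sequencing (ChIP-seq) are described here for 6 genes of RNA-binding proteins with neural roles: elav, fne and Rbp9 of the ELAV family, cpo, msi, and the cold shock domain gene yps. They are 6 of 13945 protein-coding genes, and 9 peaks of the authors' thresholded list had their summit, the position of highest enrichment, in a body of these genes or within 5 kb of it. The genes were chosen by name and family, with earlier results of these data known. The gene yps, whose role given below is in oogenesis, was added because its peak stood near the top of the list. The peaks at cpo and elav had also been seen. Having a peak is therefore the way the genes were chosen and is given as a description, with no test.

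The protein mapped was E(spl)mδ-HLH, carried as a fusion with GFP at its C-terminus by a transgenic Drosophila melanogaster line. Whole embryos of both sexes, aged 2 to 12 h, gave 1 group of 2 biological replicates, and sonication cut the chromatin into fragments of 200 to 800 bp. The promoter that drives the fusion is not given in the sources used here. Peaks came as 1 list of 30000 for each replicate, 1 of 30000 for both replicates pooled, and the thresholded list, which holds the strongest pooled peaks. The list ended between pooled rank 2740, held by a peak near Fmr1, and rank 2784, held by a peak in cpo, with a lowest signal of 117. A free-text label calls the samples input control, while the assay, the antibody and the separately listed control point to immunoprecipitated chromatin, as which they were treated. With whole embryos, peaks of a few neural cells and weaker peaks of many cells cannot be told apart, and no expression was measured.

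E(spl)mδ-HLH belongs to the bHLH repressors encoded in the Enhancer of split complex. Notch signalling switches these genes on, and their products recruit the corepressor Groucho and hold back neural fate. Most of the RNA-binding proteins encoded by the 6 genes act later in that fate. Elav is found in the nuclei of neurons, where it steers alternative splicing and the lengthening of 3′ UTRs, and is widely used to mark neurons. Fne and Rbp9 are its paralogs, Rbp9 being needed in the female germline as well. Cpo is present in sensory organ precursors and in the nervous system, Msi represses translation in the asymmetric division of sensory organ precursors, and Yps is a Y-box protein that works with Exu on the translation of localized mRNAs in oogenesis.

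The sequences under the strongest peaks of yps, cpo and msi show what lay at their summits. In the promoter-side sequences that follow, capitals mark the motif CCGGAA, the motif TATCGAT (here read on its other strand), the motif GAGAGAG or the motif CACCTG, which are counted further on. The motif CACNAG, also counted there, is left in lower case, including its match near the yps summit. All are reference sequence of dm6 written 5′ to 3′. The yps stretch starts at the peak's far end and stops at the base before the transcription start site (TSS), the first 2 stretches after it are the whole peaks upstream of cpo and msi, and the last is the part of the msi promoter peak before the TSS. That promoter peak is weaker, at pooled rank 1478, and the printed part stops short of its summit.
yps upstream of the TSS, chr3L:12125151-12125275, minus strand: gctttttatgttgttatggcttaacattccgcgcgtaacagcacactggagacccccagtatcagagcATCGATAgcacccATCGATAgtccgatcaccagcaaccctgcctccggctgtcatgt
cpo upstream peak, chr3R:17919147-17919309, plus strand: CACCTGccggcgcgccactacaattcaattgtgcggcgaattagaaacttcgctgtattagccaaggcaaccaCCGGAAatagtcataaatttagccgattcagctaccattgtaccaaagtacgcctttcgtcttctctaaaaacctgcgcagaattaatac
msi upstream peak, chr3R:25515480-25515585, plus strand: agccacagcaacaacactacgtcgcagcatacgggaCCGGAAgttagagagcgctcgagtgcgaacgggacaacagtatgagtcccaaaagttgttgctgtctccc
msi promoter peak, chr3R:25516001-25516117, plus strand: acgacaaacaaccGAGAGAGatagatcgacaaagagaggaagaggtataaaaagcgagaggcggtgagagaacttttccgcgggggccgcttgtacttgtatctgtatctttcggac

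For elav the bases within 50 bp of the summit are shown because, like those of the msi promoter peak, they held none of the motifs searched. The capital marks the summit base.
elav intron, chrX:522560-522660, minus strand: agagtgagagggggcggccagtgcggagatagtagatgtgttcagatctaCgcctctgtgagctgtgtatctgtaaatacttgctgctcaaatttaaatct

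The peak at yps was the strongest of the 9. Its summit lay 25 bp upstream of the gene's 1 TSS, at position 12125175 of chromosome 3L in a peak at chr3L:12125062-12125275 (yps, FBgn0022959, 12121274 to 12125150, minus strand). The authors' signal for it was 657 in replicate 1 (rank 6) and 401 in replicate 2 (rank 8). In the pooled list the signal was 1054 at rank 5, which is 6.51 times the median signal of the thresholded list. Signal is the authors' enrichment statistic and is read only within a list, and the summit in replicate 2 lay 2 bp from the pooled summit. No other protein-coding TSS was closer than that of Ir68b, 2219 bp away. A further yps summit lay 846 bp downstream of the TSS, in an intron, just outside the threshold at pooled rank 2816 (signal 115.1). That summit ranked 5369 in replicate 1 and 1276 in replicate 2, the higher place being in replicate 2.

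The gene cpo (FBgn0263995, chr3R:17919832-18018892, plus strand) had 3 thresholded peaks. The strongest, at chr3R:17919147-17919309, had its summit 602 bp upstream of the first of 3 TSSs, in intergenic sequence. It had a signal of 302 in replicate 1 (rank 79) and 193 in replicate 2 (rank 74), and a pooled signal of 495 (rank 70). Both replicates thus placed it among their 100 highest peaks. The other 2 lay in introns around the third TSS, from which 6 of the 12 transcripts start. The summit at 17941387 was 2719 bp upstream of that TSS, with signals of 114 (rank 990) and 66.1 (rank 1613) in replicates 1 and 2 and a pooled rank of 979. The summit at 17945965 was 1859 bp downstream of it, with signals of 113 (rank 1027) and 38.2 (rank 6022) and a pooled rank of 1518. Of the 9 peaks this was the one on which the replicates differed most in rank. Between them, 142 bp upstream of the third TSS, a summit just missed the threshold at pooled rank 2939 (signal 113). Its rank was 1867 in replicate 1 but 5067 in replicate 2. The next intronic summit, at 17949821, stood at pooled rank 2784 with ranks of 4756 and 2010.

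The gene msi (FBgn0011666, chr3R:25516118-25608423, plus strand) had 2 peaks at its first TSS, from which 4 of 7 transcripts start. The upstream summit lay 571 bp before it in a peak of 106 bp, with signals of 226 (rank 163) in replicate 1 and 117 (rank 363) in replicate 2. The summit at the TSS itself lay 8 bp downstream of it, with signals of 96.1 (rank 1450) and 54.8 (rank 2463). The upstream peak was thus the higher in both replicates, and in the pooled list the values were 340 (rank 192) and 157 (rank 1478). The next TSS of another protein-coding gene, CG5111, was 9272 bp from the upstream summit. At the last msi TSS, inside the gene, a pooled summit 4 bp away stood at rank 4747, with ranks of 5501 and 7041 in replicates 1 and 2.

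At elav (FBgn0260400, chrX:509235-523226, minus strand) the summit lay in an intron, 616 bp downstream of the 5′-most TSS, and 3 of the 4 transcripts span it. Its signal was 159 in replicate 1 (rank 420) and 92.2 in replicate 2 (rank 722), and 248 in the pooled list (rank 491). The position also falls in the bodies annotated for arg and for the long noncoding RNA lncRNA:enrr, so the list alone does not assign it to elav. The replicate 1 summit was 45 bp from the pooled summit, the largest shift among the 9 peaks. A summit 67 bp from the elav TSS was weak, at pooled rank 5284, and stood at rank 3030 in replicate 1 and 25916 in replicate 2. Another lay 1216 bp upstream of the TSS at pooled rank 3015, with ranks of 4167 and 5161.

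In the other ELAV family genes the thresholded peaks were far from the genes' own start sites. At Rbp9 (FBgn0010263, chr2L:2954762-2968434, plus strand) the summit at 2967102 lay in the 3′ UTR of 1 of 9 transcripts, 1332 bp before its end and 7955 bp from the nearest Rbp9 TSS. The nearest protein-coding TSS was that of Ts, 2536 bp away. For the other 8 summits the nearest protein-coding TSS was the gene's own. Its signal was 151 in replicate 1 (rank 486) and 67.9 in replicate 2 (rank 1510), and 217 in the pooled list (rank 712). At fne (FBgn0086675, chrX:12917477-12950417, plus strand) the summit at 12947876 lay in the 3′ UTR of 9 of 11 transcripts, which together span 4927 bp. It was 6604 bp from the nearest fne TSS and 9586 bp from that of hec. The signal of this fne peak was 107 in replicate 1 (rank 1153) and 51.2 in replicate 2 (rank 2884), and 158 in the pooled list (rank 1437). Replicate 2 ranked another fne summit higher, in the intron at 12926268, at rank 2027, which ranked 8275 in replicate 1 and 3447 in the pooled list.

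**Figure D1:**
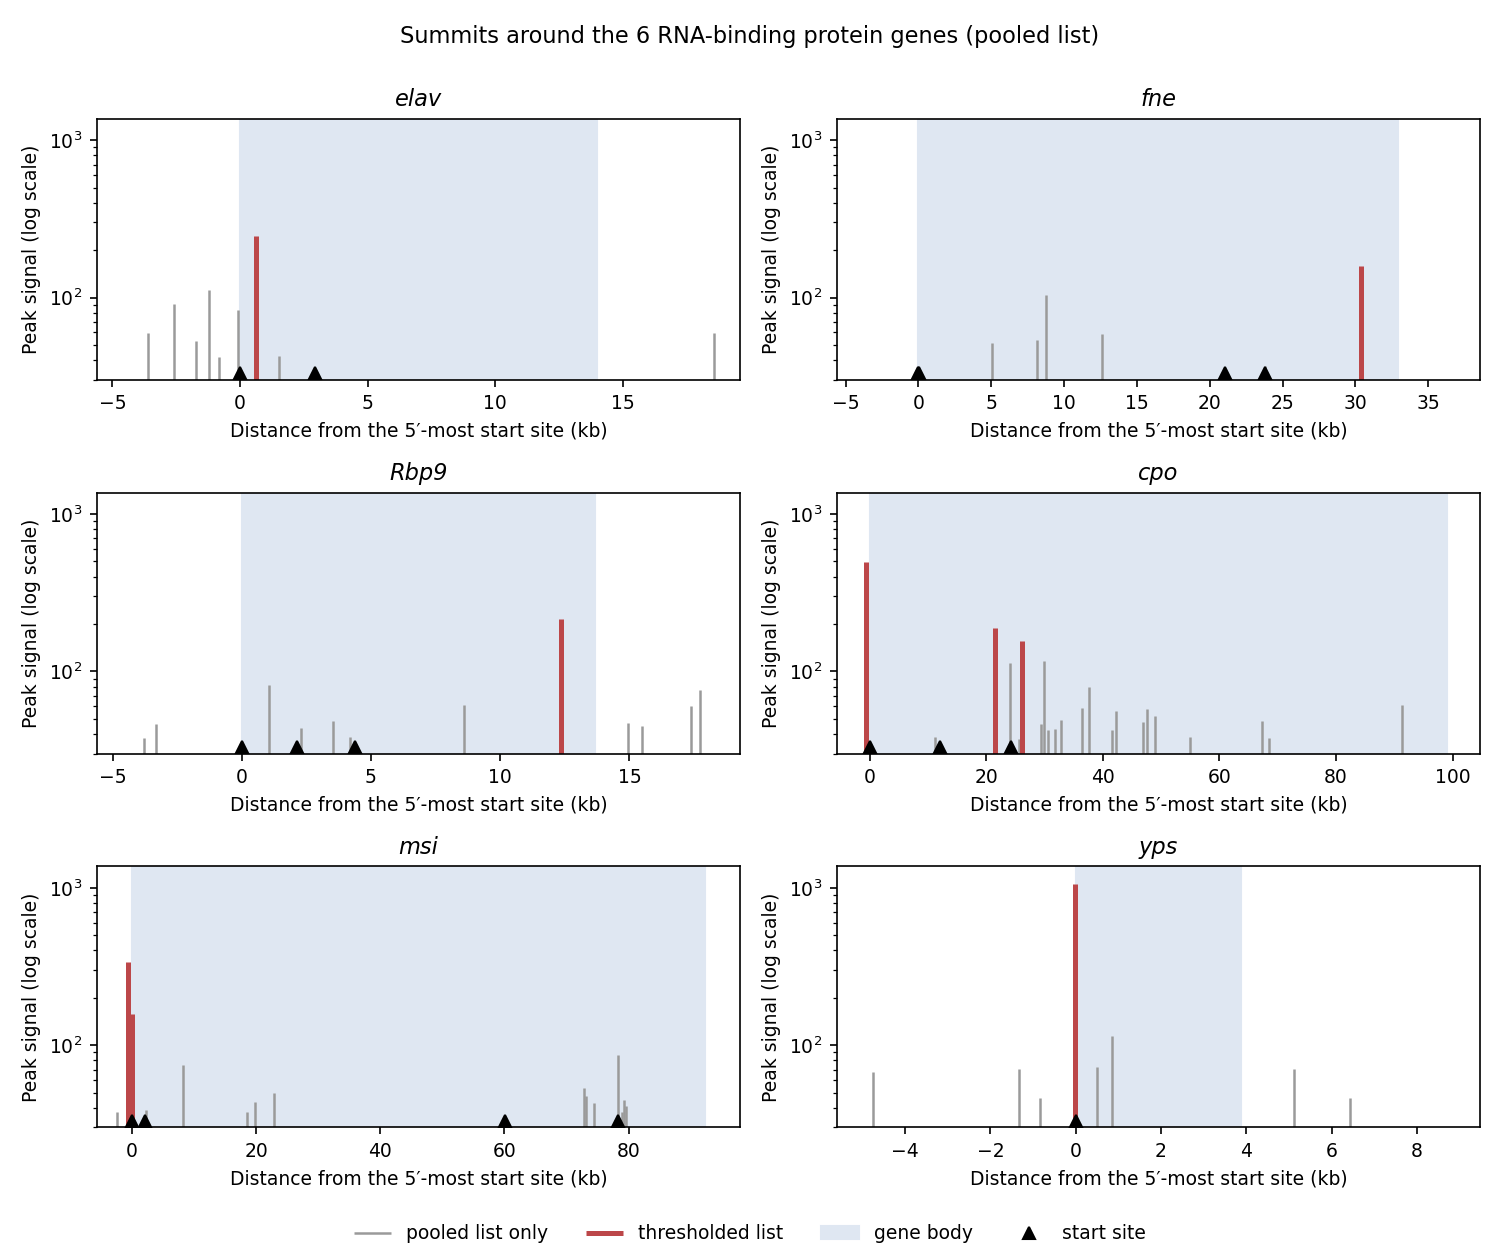
Pooled-list summits in each gene and 5 kb to either side, by distance in kb from the 5′-most start site in the direction of transcription (x axis) and by the authors' signal on a log axis that starts at 30 (y axis). Red lines are the 9 thresholded summits, grey lines the others, triangles start sites and shading the gene body. The red lines stand at the start of yps, cpo, msi and elav, with 2 more inside cpo, and near the 3′ end of fne and Rbp9.

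Summits in 3′ UTRs and away from start sites numbered 22 in the thresholded list, or 0.8% of it. Those of Rbp9 and fne were the third and the twelfth of the 22 by signal. Of the 22 summits the median distance to a protein-coding TSS was 2051 bp and the longest 14926 bp, at pros.

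All 6 genes had a thresholded summit in the body or within 5 kb, as did 30.4% of protein-coding genes, and 2 of the 6, cpo and msi, had 2 or more, as did 10.5%. Nothing is read from these counts or from the densities below, since the genes were chosen with peaks of these data known. Long genes offer more room: the share was 27.1% of genes with a body under 10 kb, 48.8% from 10 to 50 kb and 57.7% at 50 kb or longer. The gene yps is in the first class, elav, fne and Rbp9 are in the second, and cpo and msi, of 99.1 and 92.3 kb, are in the third. Over the 316 kb searched, the 9 summits come to 2.85 per 100 kb, against 2.05 over the 6 chromosome arms, and the mean density would place 6.49 summits there. By gene the mean density would place 2.24 summits at cpo, where there were 3, and 2.10 at msi, where there were 2. For yps it would place 0.285, for elav 0.493, for Rbp9 0.486 and for fne 0.882, each with 1.

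Near start sites, 4 of the 6 genes (elav, cpo, msi and yps) had a thresholded summit within 2 kb of a TSS of their own, as did 16.9% of protein-coding genes. Within 500 bp it was 2 of 6, msi and yps, against 12.0%. The peaks at yps, cpo and elav were known when the genes were chosen, so nothing is read from these counts. By location 3 of the 9 summits were in introns, 2 in 3′ UTRs, 2 within 500 bp of a TSS and 2 intergenic. The location shares over all thresholded peaks were 25.2% intronic, 55.4% within 500 bp of a TSS and 13.5% intergenic. Of the 17 distinct TSSs of the 6 genes, 5 had a thresholded summit within 2 kb and 9 had a pooled summit within 500 bp. The last count was 8 in replicate 1 and 7 in replicate 2, and over all protein-coding TSSs the pooled share was 45.6%.

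The pooled list held 72 summits in the same windows, 22 at cpo, 15 at msi, 12 at Rbp9, 9 at elav, 8 at yps and 6 at fne. A pooled summit in the body or within 5 kb was found for 86.6% of protein-coding genes, so such a summit separates few genes. Replicate 1 held 74 summits there and replicate 2 held 69. Of the 72 peaks, 40 (55.6%) were met by a peak of each replicate's list, against 45.9% of all pooled peaks. By gene this was 13 at cpo, 8 at msi, 6 at Rbp9, 6 at yps, 5 at elav and 2 at fne.

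All 9 thresholded peaks overlapped a peak in each replicate's full list. Among as many of each replicate's highest peaks as the thresholded list holds, 9 of 9 were found in replicate 1 and 7 of 9 in replicate 2, so 7 were in both, against 61.7% of all thresholded peaks. The 2 exceptions were the fne peak, at rank 2884 in replicate 2, and the cpo peak at 17945965. Ranks were higher in replicate 1 for 8 of 9, the exception being the first cpo peak, against 55.5% of the 2730 thresholded peaks found in both lists. The thresholded and pooled lists are built from the same reads as the replicate lists, so these shares describe agreement within the experiment.

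**Figure D2:**
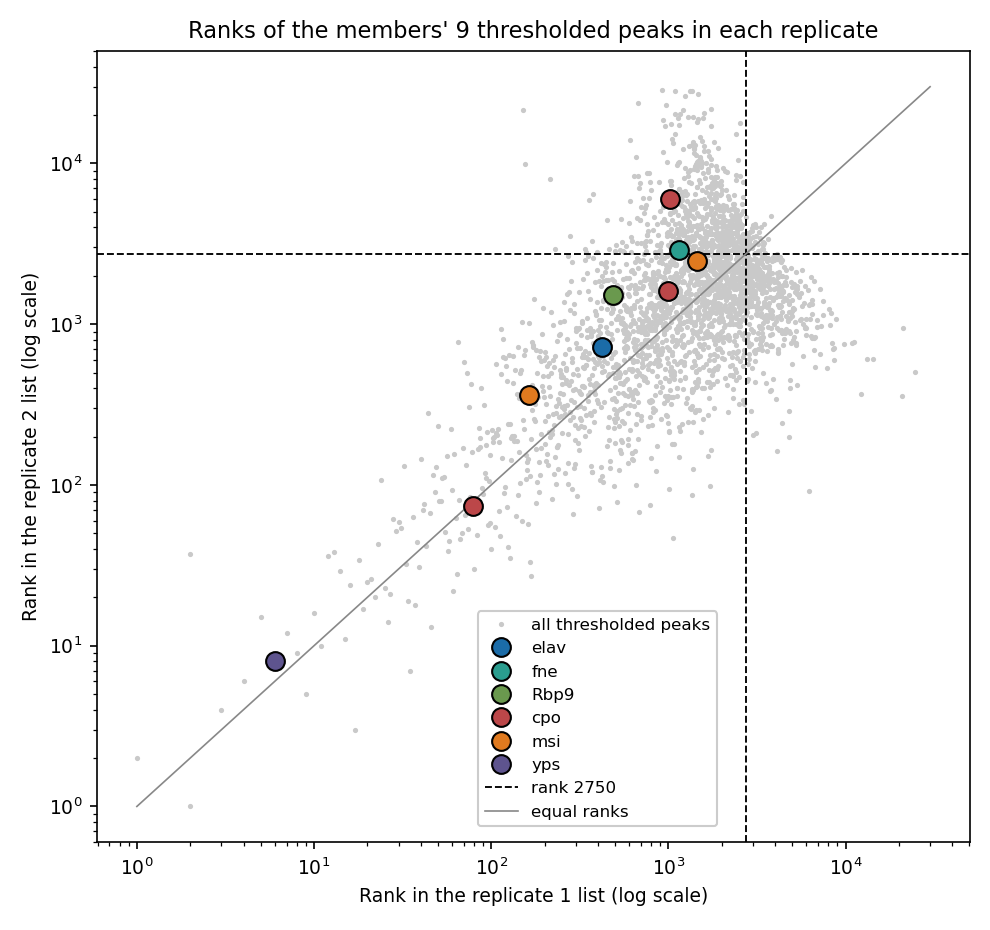
Rank of each thresholded peak in the replicate 1 list (x axis) and in the replicate 2 list (y axis), both on log axes, with rank 1 the strongest. Coloured points are the 9 peaks at the 6 genes, grey points the other thresholded peaks, dashed lines the length of the thresholded list and the diagonal equal ranks. The yps peak lies near the corner of strongest ranks, and 8 of the 9 points lie above the diagonal.

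The 3 strongest peaks, of yps, cpo and msi, were also narrow, at 214, 163 and 106 bp, while the other 6 had the usual width of 250 bp. Peaks narrower than that were 10.1% of the thresholded list and 46.4% of its strongest 550 peaks, so narrow width went with signal over the whole list. GC content within 50 bp of the 9 summits ran from 44.6% at the first cpo peak to 57.4% at the cpo peak of rank 979. Its median was 53.5%, against 51.5% over all thresholded summits, whose quartiles were 46.5% and 55.4%.

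Motifs were searched on both strands within 50 bp of each summit. Of the sites known for proteins of the Enhancer of split and Hairy families, CACGTG and CACGCG were in 0 of 9 windows, against 3.35% and 8.47% of all thresholded windows, and CACNAG, the N box, was in 2 of 9, against 17.1%. With shares this low over the whole list, counts of 0 to 2 in 9 windows do not set the 9 apart. The CACNAG matches were centred 2.5 bp upstream of the yps summit and 12.5 bp downstream of the cpo summit of rank 979. GAGAGAG, the recognition sequence of GAGA factor, was in 1 of 9 (9.24% of all), as 3 overlapping copies 39 to 43 bp from the cpo summit of rank 1518. The copy printed in the msi promoter peak is centred 109 bp upstream of that peak's summit, outside the window. CACCTG was in 1 of 9 (4.55% of all), at the cpo summit of rank 979, and the copy printed at the start of the first cpo peak lies 80.5 bp from that summit, outside the window. The reordered control GTGCAC was in 1 of 9, against 4.0% of all windows. The motif CATATG was in 0 of 9, against 3.64% of all thresholded windows. The proneural motif GCAGCTG was also in 0 of 9, against 4.47%, and its form GCAGGTG in 0 of 9, against 1.38%. The DRE motif TATCGATA was in 0 of 9, against 2.0%, and the Zelda motif CAGGTAG in 0 of 9, against 0.982%. Every GCAGGTG match is also a match of CACCTG.

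The motif CCGGAA was noticed in these windows and counted afterwards, so its number here supports nothing. It was in 5 of 9 windows, 1 each at yps, cpo, msi, Rbp9 and fne, against 4.55% of all thresholded windows and 2.25% of windows 500 bp to the left of the summits. GGAA is the core recognized by ETS-domain factors. The sites are shown with 8 bases to either side, since these letters are what the 5 windows share, on the plus strand and with the motif in capitals.
yps, chr3L:12125132-12125153, plus strand: cgcaagctCCGGAAgtgaaaca
cpo, chr3R:17919212-17919233, plus strand: ggcaaccaCCGGAAatagtcat
msi, chr3R:25515508-25515529, plus strand: atacgggaCCGGAAgttagaga
Rbp9, chr2L:2967052-2967073, plus strand: agacgccaCCGGAAacggaaac
fne, chrX:12947820-12947841, plus strand: caaatagaCCGGAAgtcctcga

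In 4 of the 5 sites an A precedes the motif, and ACCGGAA was in 2.29% of all thresholded windows and 0.582% of the left-hand windows. The exception was yps. In the direction of transcription the cpo site was centred 7.5 bp upstream of its summit, the msi site 28.5 bp, the Rbp9 site 39.5 bp and the fne site 45.5 bp, while the yps site was 32.5 bp downstream of its summit and 7.5 bp downstream of the TSS. The windows of elav, of the other 2 cpo peaks and of the msi promoter peak held none. Over all thresholded peaks the share with CCGGAA was 7.64% in the strongest 550, 4.91% in the next 550, and 2.73%, 3.64% and 3.82% in the sets of 550 after them. The corresponding shares for ACCGGAA were 4.91%, 2.73%, 1.09%, 1.45% and 1.27%. Of the 22 summits in 3′ UTRs, 5 held CCGGAA within 50 bp, those of Rbp9 and fne among them.

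**Figure D3:**
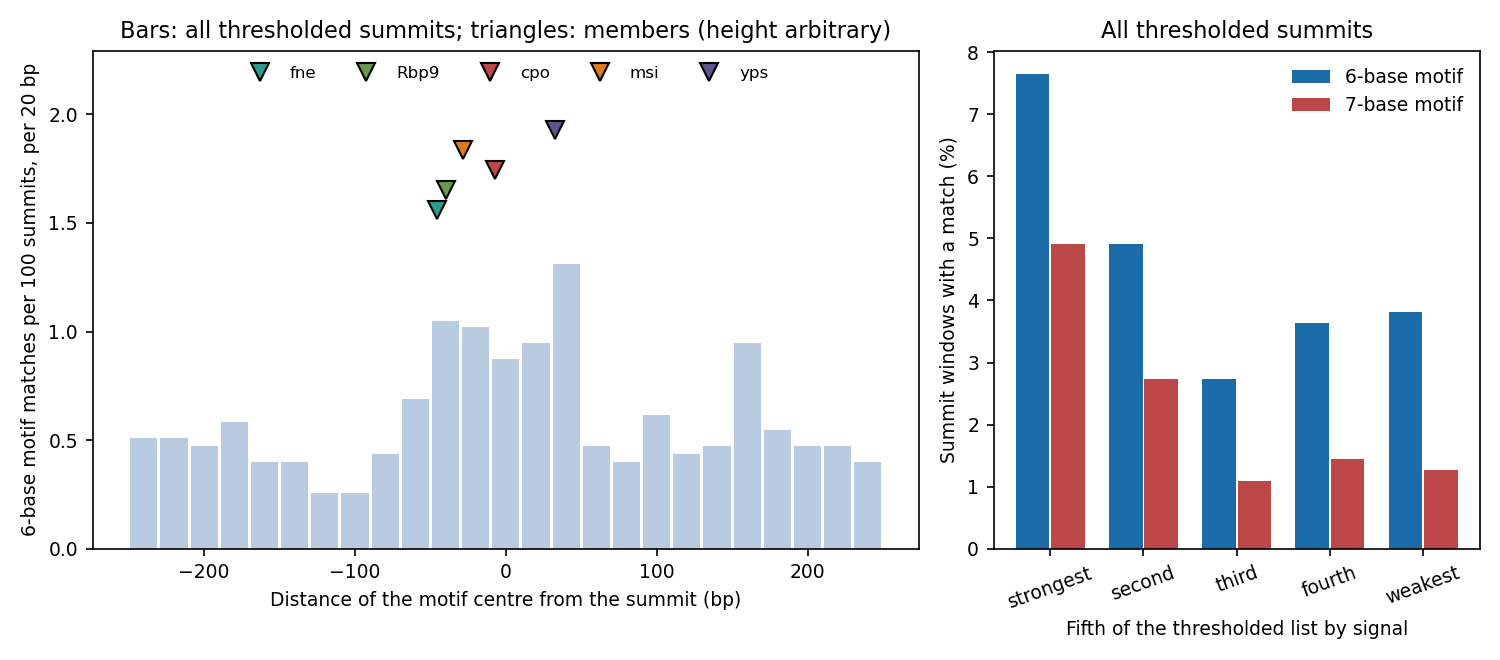
Left, CCGGAA matches (the 6-base motif) per 100 thresholded summits in bins of 20 bp (y axis) by distance of the match centre from the summit in bp (x axis), with triangles at the distances of the matches at the 5 genes, drawn at arbitrary height. Right, percent of summit windows with CCGGAA or ACCGGAA (the 7-base motif) in successive sets of 550 peaks of the thresholded list by signal, 7.64% for CCGGAA in the strongest set and 3.82% in the weakest.

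TATCGAT, the greater part of the DRE to which the factor DREF binds, was also searched after it was seen. It was in 1 of 9 windows, against 3.89% of all thresholded windows and 1.53% of left-hand windows. That window was yps, with 2 copies centred 41 and 54 bp upstream of the TSS, both in the printed sequence.

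The 3′ UTR summits of Rbp9 and fne also fell within inverted repeats, counted after the fact, at the first base of the left arm in Rbp9 and in the loop in fne. At Rbp9, arms of 13 bp (tgtaaacgatgca at 2967102 to 2967114 and tgcatcgtttaca at 2967136 to 2967148) flanked a loop of 21 bp. At fne, arms of 10 bp (actgcttgca at 12947848 to 12947857 and tgcaagcagt at 12947889 to 12947898) flanked a loop of 31 bp. The longest arms at the other 7 summits were 5 to 7 bp. Over the usual width of a peak, arms of 10 bp or longer were found in 4.18% of all thresholded windows and 4.07% of left-hand windows, and arms of 13 bp or longer in 0.291% and 0.182%. The shares at summits and beside them were thus near each other over the whole list.

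Other RNA-binding protein genes were taken from a list of 35, chosen by function with earlier results of these data known. A thresholded summit within 2 kb of a TSS was found for 14 of the 35, against 16.9% of protein-coding genes. By role it was 8 of 19 genes of splicing and other nuclear steps, 5 of 12 genes of translation, localization and stability, and 1 of 4 genes made up of partners of Yps and lin-28, the other cold shock domain gene. The listed genes are long, with a median body of 20.2 kb against 2.17 kb for all protein-coding genes, and the part of length in these counts was not tested.

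Among the splicing genes the strongest signals were 245 at mub (rank 504), which encodes a KH-domain protein, and 228 at sm (rank 614), an hnRNP L relative. Next came 165 at ps (rank 1305), the pasilla splicing regulator, and 154 at Hrb27C (rank 1551), an hnRNP, where the summit was 19 bp from the TSS of nop5 and 1942 bp from that of Hrb27C. Among the translation genes brat, a translational repressor of neural progenitors, had 340 (rank 193), at a summit 1296 bp from its TSS and 121 bp from that of Polr1D. The repressor pum followed with 153 (rank 1563), then nanos with 138 (rank 1944), 354 bp from its TSS and 72 bp from that of CG11779, and Imp, an mRNA-binding protein of growing neuroblasts, with 138 (rank 1973). Of the last set lin-28 had 120 (rank 2606), while the Yps partners exu, me31B and tral had none within 2 kb. The signals at yps and the first cpo peak were above those of all 14. Signals at msi and brat stood level at 340, and elav (248) and mub (245) stood side by side. Since yps was added for its high rank and the cpo and elav peaks were known, nothing is read from this order.

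**Figure D4:**
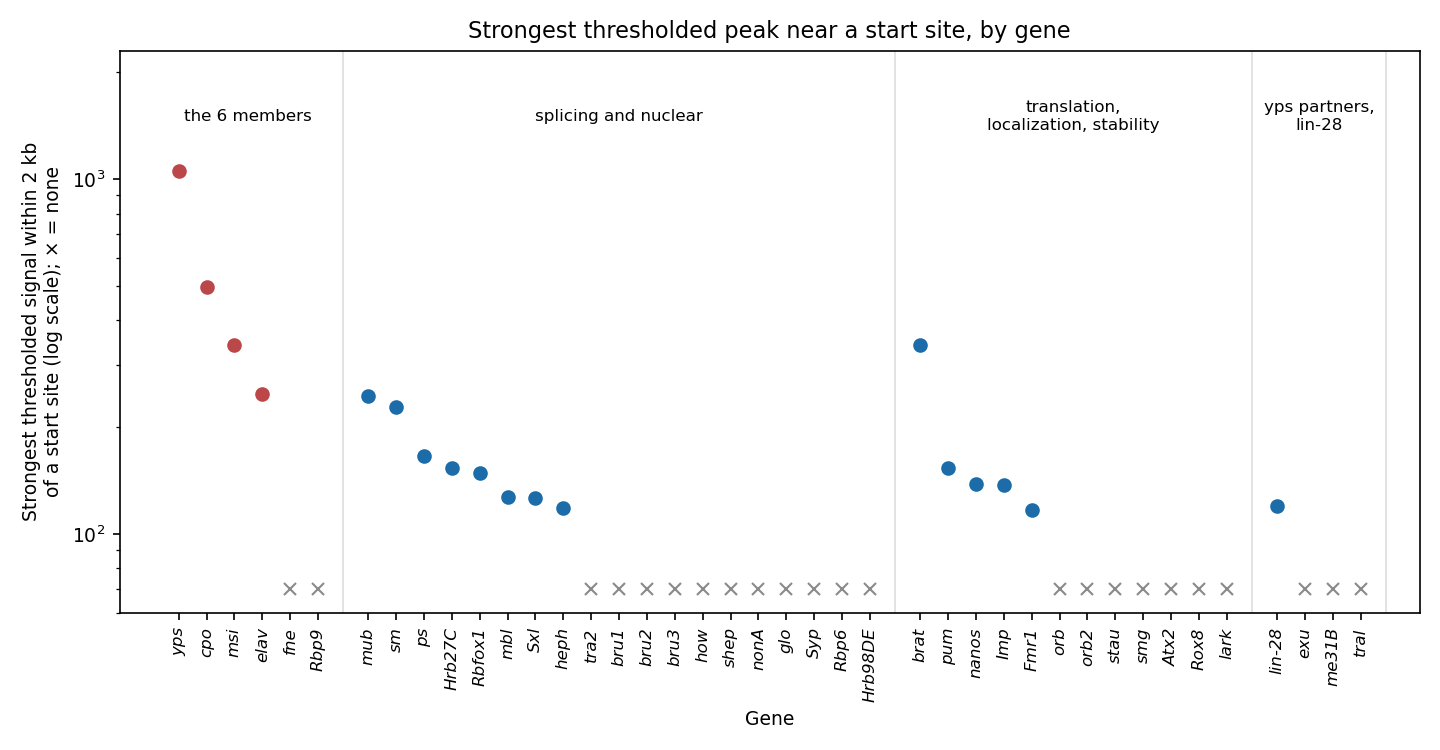
Signal of the strongest thresholded peak within 2 kb of a start site (y axis, log scale) for the 6 genes (red) and the 35 other RNA-binding protein genes (blue), grouped by role along the x axis. Crosses are genes with no such peak, fne and Rbp9 among them. The yps peak, at 1054, is above every other gene shown, and yps was chosen for its high rank.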

How the data were processed

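Chromatin from 2 biological replicates of embryos was profiled by ChIP-seq. The authors deposited 4 peak lists on dm6: 1 per replicate, 1 of both together, and 1 cut at an irreproducible discovery rate (IDR), all called against the same control alignment per the deposited file listing. Aligner, caller and IDR level: not given in the sources used here. Each peak's signal was deposited by the authors and compared within a list only. The q-value was deposited as −log10 and was not used for ranking, and the summit offset is another deposited column, in bp from the peak start. Read counts were not used here, so depth is unknown.

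Genes came from the Ensembl release of BDGP6, and bases from NCBI's Release 6, which is dm6. The first 3 coding bases were ATG in 30598 of 30748 protein-coding transcripts, and 0 peaks ended beyond an arm. Positions are 1-based. Summits on the 6 main arms were assigned to a gene in its body or within 5 kb. Peaks matched between lists if they shared 1 bp. Motifs were counted within 50 bp of the summit, inverted repeats over the usual peak width with loops of 3 to 60 bp. With 1 group no test was made, and counts stand beside the share over all genes or peaks.

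The 6 genes and the list of 35 were chosen with earlier results of these data known. Named genes are the 6, the nearest other gene to their summits, and up to 4 listed genes per role with the highest signal. The genes pros, arg, Fmr1, lncRNA:enrr, exu, me31B and tral were named after their values were seen. Alternatives covered the flank, the TSS distance, the strongest 1375 peaks, each replicate alone, overlap and motif windows. The motif CCGGAA, its longer form ACCGGAA, the motif TATCGAT and inverted repeats were added after seeing the data. Counting was tested on simulated data. Python 3.11.15, numpy 2.4.6, pandas 2.3.3 and matplotlib 3.10.9 were used.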

Additional observations from a re-analysis of the deposited data

How the results depend on the processing

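Of 107 alternative values, 91 were the same as or within 1.5 times the reported count and 16 moved further, 7 of them among 28 motif counts. The total of 9 summits fell to 6 without a flank and to 6 among the strongest 1375 peaks, and cpo fell from 3 to 2 in both. Without a flank, yps had 0 summits and msi had 1, since the summits lost lie upstream of the gene. Among the strongest 1375 peaks fne had 0 and msi 1, and the list of 35 had 4 genes within 2 kb. Counting only summits whose nearest protein-coding TSS is the gene's own left Rbp9 with 0. Requiring 500 bp left 2 of the 6 genes near a TSS, and using only the 5′-most TSS left 9 of the 35. The share of all protein-coding genes was not counted for the strongest 1375 peaks or for the 5′-most TSS. Nothing is therefore read from the 4 and the 9 of the 35. With the highest peaks of 1 replicate alone, as many as the thresholded list holds, yps had 1 to 2 summits, the second in replicate 2, and all 6 genes kept at least 1. At fne the summit in replicate 2 alone was a different one, in the intron. For cpo, replicate 2 alone gave 3 summits, with the intronic one near 17949821 (rank 2010) in place of that at 17945965 (rank 6022). Replicate 1 alone gave 4 at cpo, the added one lying just upstream of the third TSS (rank 1867). Read depth is unknown, and 2 replicates of 1 group allow no error beyond their ranks.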
